A study of Mus musculus with 4 samples.

Results

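Interferon response genes are transcripts that cells make more of after an interferon binds its receptor. The 39 genes described here were listed by name, and 37 of them were measured among the 18193 genes of the series. Each was represented by the probe set, a group of short oligonucleotide probes for 1 transcript, with the highest mean over the 4 arrays among those that the platform annotation assigns to a single gene symbol. Ifi44 had no such probe set and is not analysed here, and the probe set of Isg15 also carries a second symbol and is given apart. The arrays were Affymetrix 3' expression arrays of heart total RNA from mice labelled strain C57B6 at baseline. Of these, 2 were of hearts with the genotype GSK-3beta S9A at 3.5 months of age, in which alanine replaces the inhibitory phosphorylation site serine 9 of the kinase GSK-3beta, and 2 were of wildtype hearts at 3.6 months. The comparison asks how this knock-in allele, which can act in every cell type that makes the kinase, changes cardiac transcripts. Nothing in the labels ties the arrays of a group to different animals, and each p-value measures the spread between these arrays, which may be technical. Values are log2 expression, in which a difference of 1 is a doubling.

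Type I interferons act through the receptor IFNAR1 and IFNAR2 and the kinases JAK1 and TYK2 to assemble a complex that contains STAT2 and IRF9 and binds the interferon-stimulated response element (ISRE). Interferon gamma acts through IFNGR1 and IFNGR2 on genes with a gamma-activated site (GAS). The proteins made in response block viral replication, attack the vacuoles of intracellular microbes and raise the display of peptides on MHC class I, and resident cells of the heart such as endothelial cells, macrophages, fibroblasts and cardiomyocytes can all respond.

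The ISRE sits close to the start site of many of these genes, so the promoters of 6 members chosen after their values were seen are shown, 4 lower ones with an ISRE core, 1 higher one and 1 that differed little. Oasl2, which was lower and holds no core in its window, is described with the motif counts. RefSeq promoter windows of assembly GRCm38.p6, from 250 bases before to 50 bases after a start site, were available for 30 of the 39 genes. An ISRE core (GAAANNGAAA, either strand, overlapping matches counted separately) was found in the windows of 16 of the 30 (53.3%), compared with 3.99% of all 27025 genes with a window. The GAS letters TTCNNNGAA, which read the same on both strands, were found in 9 of the 30 (30.0%) and in 9.55% of all genes. Printed 5′ to 3′ are the 250 bases before the start site of Ifit1 at chr19:34640639-34640888 (plus strand), Rsad2 at chr12:26456453-26456702 (minus strand), Irgm2 at chr11:58214727-58214976 (plus strand), Oas1a at chr5:120907526-120907775 (minus strand), Irf1 at chr11:53769764-53770013 (plus strand) and Tap1 at chr17:34187306-34187555 (plus strand). Capitals mark the ISRE core in the first 4, which were lower in knock-in hearts, and the GAS letters in Irf1 (the first of its windows), which was higher. The cores of Ifit1 and Rsad2 lie on the opposite strand and so appear here as their reverse complement, the 2 of Oas1a overlap in 1 run of capitals, and GAS matches of Irgm2 and Oas1a are left in lower case. The part shown for Tap1, a gene with nearly equal values in both groups, holds neither motif in these letters, which says nothing about the factors that bind there.
Ifit1: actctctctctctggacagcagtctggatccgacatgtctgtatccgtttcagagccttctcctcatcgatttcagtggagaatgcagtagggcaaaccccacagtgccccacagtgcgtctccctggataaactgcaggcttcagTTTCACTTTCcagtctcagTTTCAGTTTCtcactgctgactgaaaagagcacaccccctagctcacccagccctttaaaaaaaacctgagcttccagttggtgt
Rsad2: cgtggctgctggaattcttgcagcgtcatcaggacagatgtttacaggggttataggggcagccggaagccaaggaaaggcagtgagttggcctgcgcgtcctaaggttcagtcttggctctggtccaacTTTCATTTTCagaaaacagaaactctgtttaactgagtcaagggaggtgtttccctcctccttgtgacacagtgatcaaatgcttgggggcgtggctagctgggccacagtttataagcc
Irgm2: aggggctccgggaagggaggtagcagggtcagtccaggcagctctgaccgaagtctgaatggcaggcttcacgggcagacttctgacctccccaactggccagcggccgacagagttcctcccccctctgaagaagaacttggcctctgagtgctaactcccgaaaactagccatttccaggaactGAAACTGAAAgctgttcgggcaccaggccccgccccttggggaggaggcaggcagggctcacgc
Oas1a: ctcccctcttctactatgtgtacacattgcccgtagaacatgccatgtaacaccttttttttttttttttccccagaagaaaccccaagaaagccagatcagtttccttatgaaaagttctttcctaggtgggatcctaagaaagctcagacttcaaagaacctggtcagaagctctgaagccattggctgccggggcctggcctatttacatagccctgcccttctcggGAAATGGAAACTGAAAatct
Irf1: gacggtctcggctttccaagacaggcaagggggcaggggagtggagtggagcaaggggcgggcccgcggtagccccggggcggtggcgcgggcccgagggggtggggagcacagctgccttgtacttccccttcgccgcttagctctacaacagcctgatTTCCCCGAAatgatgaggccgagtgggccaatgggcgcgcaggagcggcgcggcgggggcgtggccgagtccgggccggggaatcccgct
Tap1: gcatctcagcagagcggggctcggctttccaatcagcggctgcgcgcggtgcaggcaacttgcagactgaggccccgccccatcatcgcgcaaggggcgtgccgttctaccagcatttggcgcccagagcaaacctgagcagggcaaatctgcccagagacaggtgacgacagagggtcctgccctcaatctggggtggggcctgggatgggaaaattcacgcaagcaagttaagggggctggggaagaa

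Most antiviral effectors and interferon-induced GTPases had lower mean values in GSK-3beta S9A hearts, while the 3 antigen processing genes among the members differed little. Of the 37 measured members, 32 were lower (86.5%, beside 49.8% of all genes) and 5 higher on average in knock-in hearts, with a median log2 difference of -0.16 beside 0.00 over all 18193 genes. No member passed the test, limma with Benjamini-Hochberg adjustment over all genes, in which 1 gene of the 18193 passed (0.00550%). Before adjustment, 11 members (29.7%) were lower with a limma p under 0.05, beside a background of 2.99% of all genes, and 0 were higher, beside 4.40%. The 11 were 7 antiviral effectors (Ifit1, Rsad2, Rtp4, Oasl2, Oas1a, Oas2 and Ifit3) and 4 GTPases (Iigp1, Irgm2, Igtp and Gbp3). The groups were fully separate, with the knock-in arrays lower, in 19 members (51.4%), beside 17.0% of all genes, and with the knock-in arrays higher in 1, Irf1, beside 19.6%. The members were listed with earlier results of these arrays known, so their counts are a description and were not tested as a set.

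**Figure D1:**
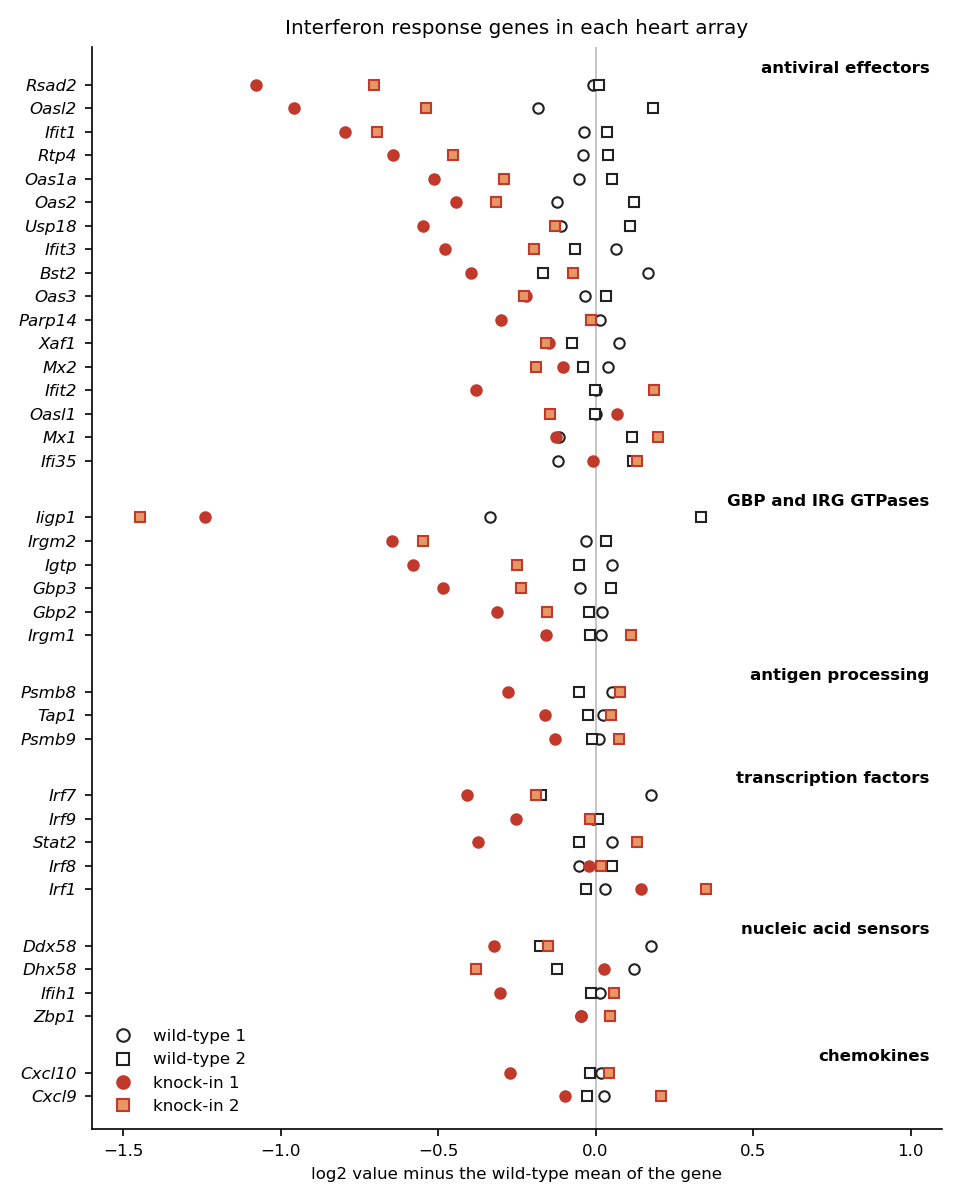
Log2 value of each of the 37 measured genes in each array, minus that gene's wild-type mean, by class; open symbols are the 2 wild-type arrays and filled symbols the 2 knock-in arrays. Iigp1, Rsad2, Oasl2 and Ifit1 have both knock-in arrays far to the left of both wild-type arrays, whereas in the antigen processing class knock-in 2 lies to the right of both wild-type arrays.

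The antiviral effector class held proteins that act on viral RNA, proteins or budding, and regulators or other factors such as Usp18, Oasl1 and Xaf1. Its median difference was -0.23 over 17 measured genes. Of these, 15 were lower and 2 higher, and in 12 the knock-in arrays lay fully below the wild-type ones, a separation that 17.0% of all genes had. Ifit1, which binds viral RNA that lacks the methylated cap of host mRNA, was at 8.17 and 8.24 in wild-type and 7.41 and 7.51 in knock-in hearts. Arrays of a group lay within 0.10 of each other for Ifit1, and the groups did not overlap. The difference was -0.74 with a standard error (SE) of 0.10, or 1.67-fold (limma adjusted p = 0.211).

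Rsad2 encodes viperin, which converts CTP into a chain terminator of viral RNA synthesis. Its values were 9.51 and 9.53 in wild-type and 8.45 and 8.82 in knock-in hearts, which were well apart although the knock-in arrays themselves differed by 0.37. The difference was -0.89 (SE 0.14), or 1.85-fold (limma adjusted p = 0.237). The other probe sets of Rsad2 gave differences of -1.04 and -0.95.

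Rtp4, a zinc-finger protein of the transmembrane receptor transporter family, was at 9.39 and 9.47 in wild-type and 8.78 and 8.97 in knock-in hearts. The groups did not overlap, and the difference was -0.55 (SE 0.11, limma adjusted p = 0.327). A second, dim probe set of Rtp4 with a mean of 4.30 differed by 0.01 (0.00716 before rounding).

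The 2′-5′-oligoadenylate synthetase family, whose active enzymes make the messenger that switches on RNase L, was split. Oasl2, an OAS-like protein with ubiquitin-like repeats, was at 7.51 and 7.87 in wild-type and 6.73 and 7.15 in knock-in hearts, a difference of -0.75 (SE 0.18, limma adjusted p = 0.395). Its paralogue Oasl1, which inhibits translation of Irf7 mRNA, was at 6.56 in both wild-type arrays and at 6.63 and 6.42 in knock-in hearts. These groups overlapped, with a difference of -0.04 and a 95% interval from -0.31 to 0.23. The enzyme Oas1a was at 8.30 and 8.41 against 7.84 and 8.07 (-0.40, SE 0.12, limma adjusted p = 0.483). Oas2 was at 8.56 and 8.81 against 8.24 and 8.37 (-0.38, SE 0.12, limma adjusted p = 0.546). In both enzymes the groups did not overlap, with gaps of 0.24 and 0.19 between the nearest arrays. Oas3, the synthetase with the longest chain, was dim at a mean of 4.78 and differed by -0.22 (limma adjusted p = 0.684).

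The remaining IFIT genes, neighbours of Ifit1 that share its tetratricopeptide repeats, differed less. Ifit3 was at 8.24 and 8.11 in wild-type and 7.70 and 7.98 in knock-in hearts, an average difference of -0.34 (SE 0.13, limma adjusted p = 0.634). Ifit2 was at 7.39 in both wild-type arrays and at 7.01 and 7.57 in knock-in hearts, so that the knock-in arrays lay on either side of wild-type and differed by 0.56 from each other. Oas and Ifit genes have close copies in the mouse genome whose RNA may bind the same probes.

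The remaining antiviral effectors did not reach an unadjusted limma p of 0.05 either. Usp18, the protease that removes ISG15 from proteins and damps IFNAR signalling, was at 7.34 and 7.57 against 6.91 and 7.33. Its groups were 0.02 apart, and the difference of -0.34 was smaller than the 0.42 between the knock-in arrays. The budding inhibitor tetherin, Bst2, differed by -0.23, the apoptosis factor Xaf1 by -0.15, the ADP-ribosyltransferase Parp14 by -0.16 and the dynamin-like GTPase Mx2 by -0.15. Bst2 arrays overlapped between groups, whereas those of Xaf1, Parp14 and Mx2 were separate by at most 0.07, in Xaf1. Ifi35, a partner of the inducible protein Nmi, and the dynamin-like GTPase Mx1 were the 2 higher members, by 0.06 and 0.04 with overlapping groups. The probe set of Isg15, the ubiquitin-like modifier, is also assigned to Gm9706 and was at 6.53 and 6.32 in wild-type and 6.18 and 6.48 in knock-in hearts, where the groups overlapped.

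GTPases that attack microbe-containing vacuoles had the lowest median of the 6 classes, -0.39 over 6 genes, and all 6 were lower on average, of which Irgm1 was higher by 0.02 once arrays were centred on their medians. Iigp1, an immunity-related GTPase (IRG) loaded onto vacuoles, was at 10.96 and 11.63 in wild-type and 10.05 and 9.85 in knock-in hearts. Its wild-type arrays differed by 0.67, the widest wild-type spread of any member, yet the groups were 0.90 apart. The difference was -1.34 (SE 0.22), or 2.54-fold (limma adjusted p = 0.237), and a second probe set differed by -1.07.

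The IRG regulators, which keep effector GTPases off host membranes, went separate ways. Irgm2 was at 8.45 and 8.51 in wild-type and 7.83 and 7.93 in knock-in hearts (-0.60, SE 0.10, limma adjusted p = 0.237), with no overlap. Igtp, also known as Irgm3, was at 9.34 and 9.23 against 8.71 and 9.04 (-0.41, SE 0.14, limma adjusted p = 0.556). Irgm1 was at 8.20 and 8.16 against 8.03 and 8.29. The Irgm1 arrays overlapped, and its difference of -0.02 had a 95% interval from -0.32 to 0.27. Whether Irgm1 differed from Irgm2 in its response was not tested.

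Guanylate-binding proteins (GBPs), larger GTPases that coat vacuoles and bacteria, were lower by a smaller amount. Gbp3 was at 7.97 and 8.07 in wild-type and 7.53 and 7.78 in knock-in hearts (-0.36, SE 0.12, limma adjusted p = 0.561). Gbp2 was at 9.08 and 9.04 against 8.75 and 8.91 (-0.23, limma adjusted p = 0.698), and its second probe set differed by -0.31. Neither gene's groups overlapped.

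Antigen processing genes showed small differences, with a median of -0.05 over 3 genes, and the groups overlapped in each of them. The immunoproteasome subunit Psmb8 was at 9.02 and 8.91 in wild-type and 8.69 and 9.04 in knock-in hearts. Psmb9, another such subunit, was at 8.27 and 8.25 against 8.13 and 8.33. Tap1, a chain of the transporter that carries peptides into the endoplasmic reticulum, was at 8.08 and 8.04 against 7.90 and 8.11. In these 3 genes knock-in 1 was the lowest of the 4 arrays and knock-in 2 the highest. The 95% intervals ran from -0.44 to 0.24 for Psmb8, from -0.29 to 0.24 for Psmb9 and from -0.33 to 0.22 for Tap1, so differences of the size seen in Ifit1 or Irgm2 lay outside them.

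Transcription factors of the pathway were mixed, with a median of -0.12 over 5 genes. Irf1, which drives many interferon gamma targets and is itself induced through a GAS, was at 9.41 and 9.35 in wild-type and 9.52 and 9.73 in knock-in hearts. It was the 1 member with knock-in arrays fully above the wild-type ones, and it differed by 0.25 (SE 0.11, limma adjusted p = 0.698). Irf7, which amplifies interferon alpha production, was at 7.73 and 7.38 against 7.15 and 7.37 (-0.30, limma adjusted p = 0.729), where the wild-type arrays were 0.35 apart and the groups 0.01 apart. Irf9 and Stat2, parts of the complex that binds the ISRE, differed by -0.13 and -0.12, with 95% intervals from -0.41 to 0.14 and from -0.54 to 0.30. Irf8, a factor of macrophages, dendritic cells and B cells, had nearly equal means, at 7.18 and 7.28 against 7.21 and 7.25.

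Nucleic acid sensors had a median of -0.15 over 4 genes, and the groups overlapped in all 4. The RNA sensor Ddx58, which encodes RIG-I, was at 8.11 and 7.76 in wild-type and 7.61 and 7.78 in knock-in hearts. Ifih1, which encodes the long double-stranded RNA sensor MDA5, was at 7.72 and 7.69 against 7.40 and 7.76. Dhx58, the regulator LGP2, differed by -0.18, and by -0.40 and 0.01 in its other, dimmer probe sets. Zbp1, a sensor of Z-form nucleic acids that can start necroptosis, differed by 0.00 in the chosen probe set and by -0.41 in its other one. The probe sets of Zbp1 thus gave different answers, at mean values of 6.38 and 6.02.

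The chemokines that draw CXCR3-bearing T cells and NK cells did not separate. Cxcl9 was at 7.54 and 7.49 in wild-type and 7.42 and 7.72 in knock-in hearts, and Cxcl10 at 5.79 and 5.76 against 5.50 and 5.82. In both, the knock-in arrays lay on either side of the wild-type arrays, with differences of 0.05 and -0.11.

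**Figure D2:**
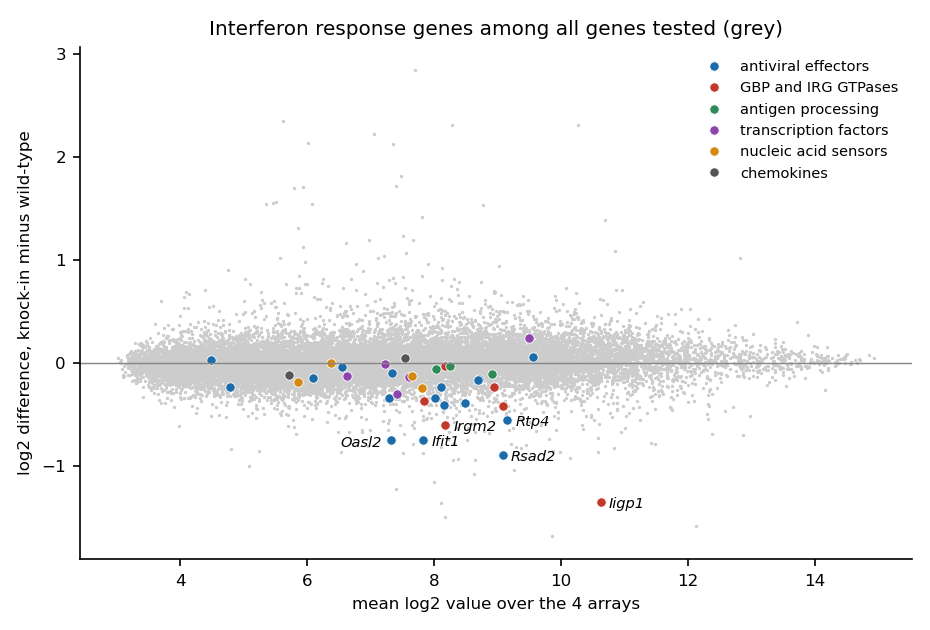
Log2 difference, knock-in minus wild-type, against the mean log2 value over the 4 arrays for all 18193 genes (grey) and the 37 measured members (coloured by class). Most members lie at or below 0, and those named, with a limma p under 0.01, lie at the lower edge of the cloud.

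The spread inside each group was uneven. Over the 37 members the median difference between the wild-type arrays, 1 minus 2, was 0.02, and between the knock-in arrays -0.22. Knock-in 1 lay below knock-in 2 in 31 members (83.8%), beside 53.9% of all genes, while wild-type 1 lay below wild-type 2 in 16, beside 41.4%. The median absolute difference inside the knock-in group, 0.22, was larger than that between the groups, 0.18, and both were larger than that inside the wild-type group, 0.09. In 15 members the difference between groups was negative and larger than both differences inside the groups (background 11.1%), and 10 of the 15 were antiviral effectors and 5 GTPases. Irf1 was the 1 higher member of this kind.

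**Figure D3:**
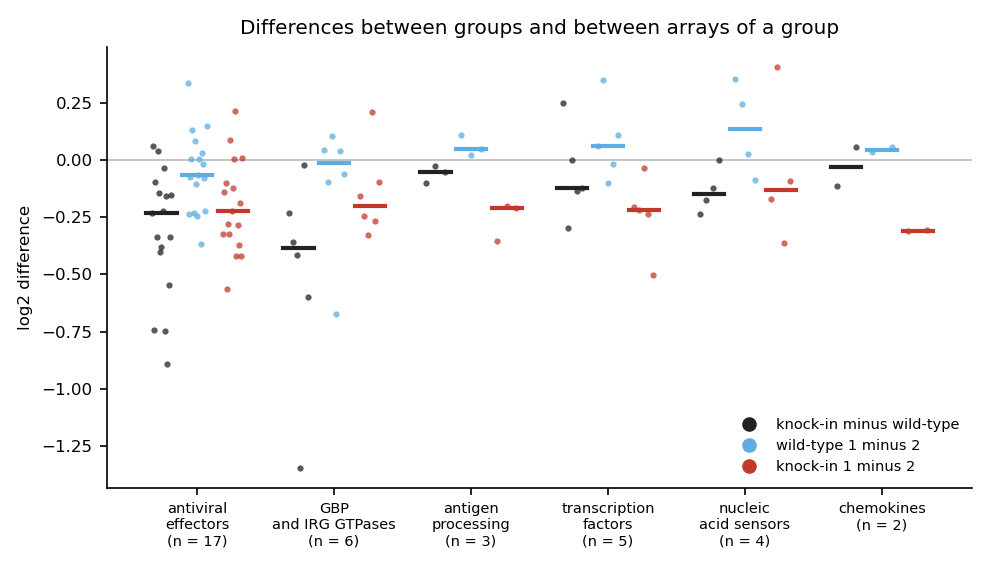
Log2 differences of the members of each class: knock-in minus wild-type means (black), wild-type 1 minus 2 (blue) and knock-in 1 minus 2 (red), with a bar at each median. In the GTPase class the black median of -0.39 lies below the red one of -0.20, whereas in the antigen processing class the red median of -0.21 lies below the black one of -0.05.

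How far several classes lay from wild-type differed between the knock-in arrays. With a lone knock-in array, assumed to vary like the others, the median of the antiviral effectors was -0.39 without knock-in 2 and -0.19 without knock-in 1. For the GTPases the same medians were -0.53 and -0.24, so both classes were negative with either array. Antigen processing genes turned from -0.16 without knock-in 2 to 0.07 without knock-in 1, and transcription factors from -0.25 to 0.02. Over all measured members the median was -0.30 without knock-in 2 and -0.14 without knock-in 1, beside -0.0016 and 0.0082 over all genes.

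**Figure D4:**
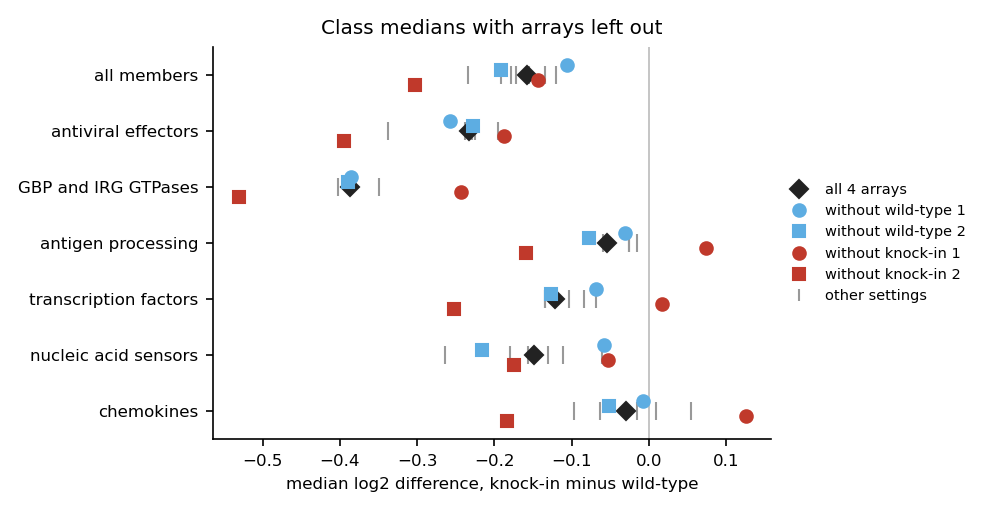
Median log2 difference, knock-in minus wild-type, of all measured members and of each class, with all 4 arrays (diamonds), with each array left out (circles and squares) and in the other settings (grey ticks). Medians of the antiviral effectors and GTPases lie left of 0 in each setting, and those of the antigen processing genes and transcription factors cross 0 without knock-in 1, as do those of the chemokines, which also cross it in other settings.

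Members with an ISRE core in their promoter window were lower more uniformly than those without one, a description that was not tested. Core status ran along with class, and the part of each was not tested. Every GTPase with a window held a core, whereas no antigen processing gene did, nor did Irf1, Irf7, Irf8 and Irf9. Iigp1, Rtp4 and Oas2, lower at an unadjusted limma p under 0.05, had no window and are not in these counts. Of 15 measured members with a core, 15 were lower (14 with centred arrays, Irgm1 being the exception), 7 of them at an unadjusted limma p under 0.05, with a median of -0.24. Of 13 measured members with a window but no core, 10 were lower (7 with centred arrays), 1 at that p, with a median of -0.05. Over all genes 49.8% were lower, and 2.99% were lower at that p. Groups were fully separate, with the knock-in arrays lower, in 9 of the 15 and 4 of the 13, beside 17.0% of all genes. With knock-in 2 as the only knock-in array, the medians were -0.20 with a core and 0.05 without one. Irgm1, Stat2, Ifih1 and Cxcl10, which hold a core, were then above their wild-type means. With all 4 arrays, the clearest exceptions on each side were Irgm1 and Oasl2. Irgm1 holds 2 overlapping cores at -30 and -24 from the start site and differed by -0.02. Oasl2 holds none in the window and differed by -0.75. In Ifit1 the cores begin at -104 and -85, in Rsad2 at -120, in Irgm2 at -64, and in Oas1a at -20 and -14, where they overlap. A GAS match overlaps a core in Bst2.

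**Figure D5:**
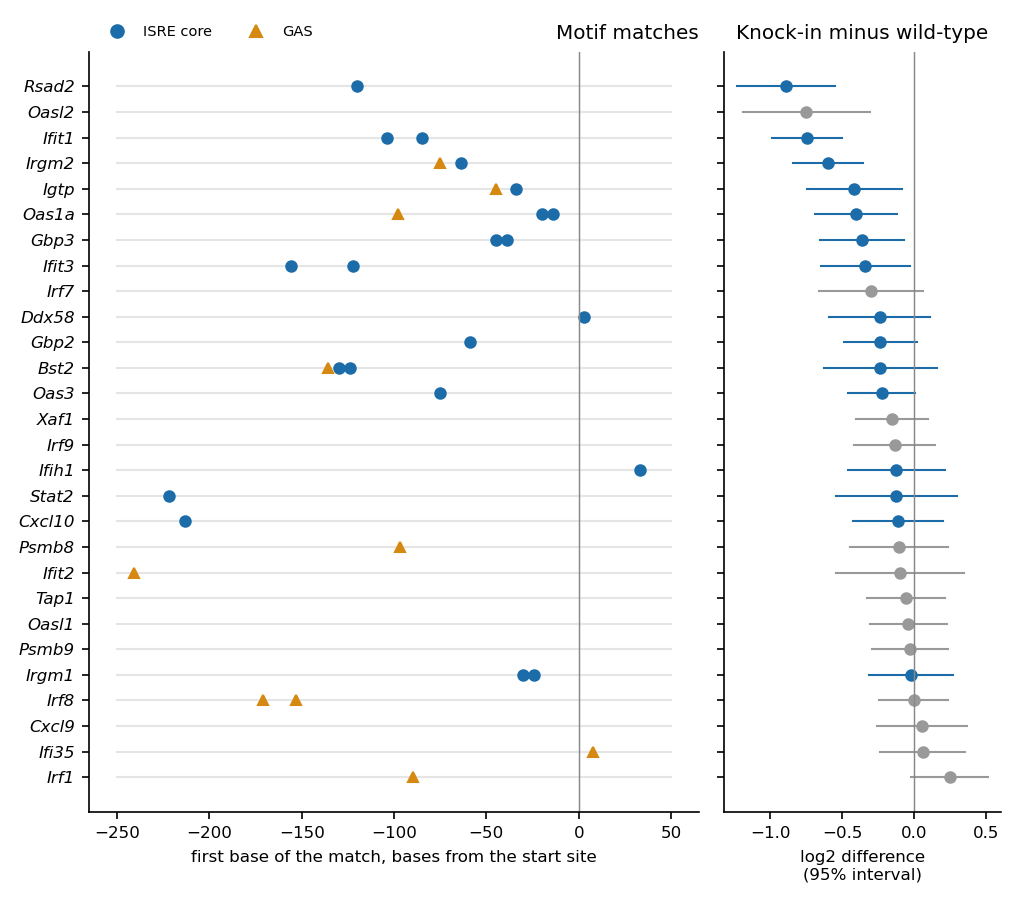
Left, the first base of each ISRE core (circles) and GAS match (triangles) relative to the start site, in bases, in the promoter windows of the 28 measured members that have one (a gene with several start sites has its windows laid over each other); right, the log2 difference with its 95% limma interval, blue for members with an ISRE core. Blue points all lie below 0, from -0.89 for Rsad2 to -0.02 for Irgm1.

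Genes upstream of these transcripts showed no common shift. Of 10 measured interferon ligands, 0 reached an unadjusted limma p under 0.05, with differences from -0.17 to 0.24. The ligands were dim, with means from 4.07 to 6.57, all below the median level of all genes. Small differences at such levels say little about ligand expression. Of 17 receptor and JAK-STAT genes, 2 were lower at that p (11.8%, beside 2.99% of all genes) and 1 higher, beside 4.40%. With probe sets averaged, 0 were either. Ifnar1 differed by 0.02, Ifnar2 by 0.13, Ifngr1 by 0.12, Jak1 by 0.07 and Tyk2 by 0.05. Ifngr2 spread from 9.95 to 10.94 inside the knock-in group alone, with a difference of 0.13. Its second probe set was higher by 0.39, with groups that did not overlap. Stat3, which transmits interleukin-6 family signals, was at 11.54 and 11.65 in wild-type and 11.03 and 11.20 in knock-in hearts (-0.48, limma adjusted p = 0.360). Its probe sets gave different answers. The probe set of second highest mean differed by -0.61 with groups that did not overlap, the one listed first by 0.03, and the mean of its probe sets by -0.21. Socs3, a STAT3 target that inhibits JAK kinases, was at 7.99 and 8.30 against 7.55 and 7.65 (-0.54, limma adjusted p = 0.395). The third of these, Il10rb, the shared receptor chain of interleukin-10 and interferon lambda, was higher by 0.39 (limma adjusted p = 0.515), and by 0.08 in a second probe set. Among 22 genes that sense nucleic acids upstream of interferon, 2 were lower at that p (9.09%, beside 2.99% of all genes) and 1 higher, beside 4.40%. The mitochondrial adaptor Mavs was higher by 0.35. The Toll-like receptor adaptor Myd88 was lower (-0.35), and so was the RIG-I ubiquitin ligase Trim25 (-0.26, or -0.05 with probe sets averaged). Irf3, which switches on interferon beta, differed by 0.00.

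Interferon-induced genes outside the 39 were mostly lower as well. Of 72 measured, 58 were lower and 14 higher (median -0.11), 11 were lower at an unadjusted limma p under 0.05 (15.3%, beside 2.99% of all genes) and 1 was higher, and none passed over all genes. Those of smallest p included the GTPase Ifi47 (-0.45, limma adjusted p = 0.354), Phf11d (-0.46), the RNA helicase family member Ddx60 (-0.51, and -0.05 in a second probe set), the TRIM family gene Trim30a (-0.42, and -0.24 in a second probe set) and the inflammatory caspase Casp4 (-0.45). Groups did not overlap in 33 lower and 3 higher genes of this list, beside 17.0% and 19.6% of all genes. With arrays centred on their medians 51 of the 72 were lower. Their median was -0.16 without knock-in 2 and -0.08 without knock-in 1. Over all 161 measured pathway genes outside the members, 17 were lower at that p (10.6%, beside 2.99% of all genes). Other antigen processing and MHC genes had 2 of 26 lower at that p (7.69%, beside 2.99% of all genes). These were the chaperones Calr (-0.68) and Pdia3 (-0.52), which load MHC class I but serve protein folding in general. Of the 26, 17 were lower (15 with centred arrays), with a median of -0.06. Their groups did not overlap in 7 lower and 3 higher genes, beside 17.0% and 19.6% of all genes. The class I heavy chains H2-K1 and H2-D1 differed by -0.18 and -0.26, their light chain B2m by -0.18, and the partner chain of Tap1, Tap2, by 0.05. Groups of H2-K1 and B2m did not overlap, but they did in the second probe set of each. Of 14 constitutive proteasome subunits, 12 were higher (10 with quantile normalization). At that p 1 was higher, Psmb2 (0.58), beside 4.40% of all genes.

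Bulk heart RNA cannot tell fewer cells of a type from less RNA per cell. The labelled tissue was borne out by 13 of 13 cardiomyocyte markers with means of at least 10.99, which differed by 0.00 to 0.10. Macrophage markers were lower in 8 genes and higher in 8, with summed linear levels of 10764 and 11470 in wild-type and 11420 and 12070 in knock-in hearts, and Csf1r differed by 0.07. The integrin chain Itgam was the 1 macrophage marker at an unadjusted limma p under 0.05. It was at 5.38 and 5.37 in wild-type and 4.88 and 4.90 in knock-in hearts (-0.48). The chemokine receptor Cx3cr1 differed by -0.21 with groups that did not overlap. Groups of macrophage markers were fully separate in 3 lower and 6 higher genes, beside 17.0% and 19.6% of all genes. The higher ones included Mrc1 (0.29), Cd163 (0.22) and Lyz2 (0.13). T cell markers were lower in 8 of 9 genes, or 6 of 9 with centred arrays (summed levels 679 and 631 against 625 and 596), B cell markers in 5 of 6 (445 and 389 against 397 and 361) and dendritic cell markers in 6 of 8 (675 and 628 against 596 and 572), with 0 genes of these 3 lymphoid and dendritic lists at that p. Endothelial markers had a median of -0.04, with summed levels of 19813 and 20246 against 19402 and 20286. Liver markers moved with the groups in the other direction: 13 of 13 were higher in knock-in hearts, with summed levels of 1128 and 808 against 2330 and 3734, and Alb was at 7.01 and 5.54 against 8.58 and 9.66. No marker is at 0 on the log2 scale of these arrays, which have no detection call. The part of macrophage, lymphoid, dendritic or liver transcripts in the differences of the interferon response genes was not tested.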

How the data were processed

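Heart RNA of wild-type and GSK-3beta S9A mice was measured on 4 arrays, 2 a genotype, grouped and numbered by sample title. The deposited values are log2 expression per probe set, made by the authors with RMA in Affymetrix Expression Console per the submitters' processing notes; no source used here names the genome build. Per the labels, the wild-type arrays were normalized only with these knock-in arrays. RMA tends to shrink the differences of dim probe sets. Precision is limited by the number of arrays.

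Of 45101 probe sets, 64 controls, 932 with several symbols and 9160 with none were left out. The other 34945, with symbols updated through a RefSeq table of assembly GRCm38.p6 (34741 matched), gave 18193 genes. Differences were tested two-sided in limma (version 3.58.1, under R 4.3.3) by lmFit and eBayes, at a Benjamini-Hochberg adjusted p under 0.05 over all genes. With 2 arrays a group, the smallest p that an exact permutation test allows is 0.333. On simulated data (5 runs of 18193 genes), the test recovered 83.6% of genes given a 2-fold change and 99.8% of those given a 4-fold change, and made 9.2 false calls a run. The simulation changed 200 genes and gave independent normal noise, with spreads drawn from the limma fit. Its rates need not hold for these arrays, in which 1 gene passed. Here Alb, which differed 7.18-fold, had a limma adjusted p of 0.281.

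The 39 members, their classes and the other lists were chosen with earlier results of these data known. The naming rule let all members be named, with full statistics for those with an unadjusted p under 0.05 and, in each class, up to 4 others of smallest p; array values of further members were added after they were seen. Up to 8 genes of each other pathway list with an unadjusted p under 0.05, and a set of core pathway genes, may also be named. The closing section gives the 14 alternatives. Motifs were searched as letters. Marker lists of neutrophils (4 of 7 lower), NK cells (5 of 7), fibroblasts (5 of 9) and erythrocytes (1 of 3) had 0 genes with an unadjusted limma p under 0.05.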

Additional observations from a re-analysis of the deposited data

How the results depend on the processing

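No member passed over all genes in any of the 14 alternatives, where the smallest adjusted limma p of a member ranged from 0.0628 to 0.709 (0.211 in the reported fit). Of 37 members, 19 kept their sign in every alternative that included them, 18 lower and Irf1 higher, including 10 of the 11 with an unadjusted p under 0.05 (the exception was Rtp4). Several alternatives could not change a sign. The replicate block, the trend and robust prior, the fold change threshold and the limit to genes above the median leave each difference as it was. Probe set choices do so for the 22 members without a second probe set. Fully separate groups keep their sign when any array is left out.

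The 1 gene passing over all genes became 0 with the replicate block, with the probe set listed first, with the probe set of second highest mean and against a fold change of 1.2. It became 22 with an intensity trend and robust prior, 11 with each array centred on its median, 11 with quantile normalization, 11 with averaged probe sets, 7 with genes above the median only, and 0 to 0 when each array was left out. The replicate block gave 11 members lower at an unadjusted p under 0.05, 10 of them shared, and changed no member's call; same-numbered arrays shared only a number (correlation of their deviations -0.03 over 18193 genes).

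Against a fold change of 1.2, 6 members and 4 other pathway genes were lower and 1 other pathway gene higher at that p. The trend and robust prior, and centring, each gave 1 member and 7 other pathway genes higher. With the second probe set, 2 members had both knock-in arrays higher. The antiviral median was -0.338 over genes above the median only, and the sensor median -0.264 with the second probe set. Centring moved the median of all genes to 0.04 and left 28 members negative.

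With each array left out in turn, members lower at that p ranged from 6 to 14 and higher from 0 to 1. Members with all remaining knock-in arrays lower ranged from 20 to 32 and higher from 1 to 13, since fewer arrays separate more easily. Other pathway genes ranged from 11 to 22 lower and 2 to 6 higher. Medians ranged from -0.303 to -0.106 over all members, -0.395 to -0.188 for antiviral effectors, -0.531 to -0.244 for GTPases, -0.159 to 0.0743 for antigen processing, -0.252 to 0.0170 for transcription factors and -0.217 to -0.0527 for sensors. Single genes that changed sign ranged from -0.144 to 0.0683 (Oasl1), -0.379 to 0.186 (Ifit2), -0.125 to 0.198 (Mx1), -0.0567 to 0.181 (Ifi35), -0.156 to 0.113 (Irgm1), -0.279 to 0.0764 (Psmb8), -0.127 to 0.0743 (Psmb9), -0.159 to 0.0505 (Tap1), -0.0536 to 0.0497 (Irf8), -0.375 to 0.130 (Stat2), -0.303 to 0.0585 (Ifih1), -0.379 to 0.0262 (Dhx58), -0.0471 to 0.0473 (Zbp1), -0.0980 to 0.208 (Cxcl9) and -0.270 to 0.0423 (Cxcl10). Among other pathway genes the ranges were -0.0121 to 0.258 (Ifngr1), -0.00871 to 0.119 (Tyk2), -0.364 to 0.626 (Ifngr2), -0.0850 to 0.135 (Ifnar1), -0.107 to 0.114 (Irf3) and -0.0505 to 0.160 (Tap2).

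Centring also reversed Oasl1 (0.000528), Irgm1 (0.0165), Psmb9 (0.0118) and Irf8 (0.0363), and quantile normalization Irf8 (0.00183) and Irf3 (-0.0293). Averaged probe sets reversed Ifi35 (-0.00917), Psmb8 (0.0226), Irf8 (0.0271), Zbp1 (-0.203), Cxcl9 (-0.0126), Jak1 (-0.111) and Irf3 (-0.0408). The probe set listed first reversed Ifi35 (-0.0946), Xaf1 (0.0577), Dhx58 (0.00812), Stat3 (0.0311), Ifnar2 (-0.0426) and Jak1 (-0.0756). The second probe set gave the same values for Ifi35, Xaf1, Ifnar2 and Jak1 and reversed Rtp4 (0.00716), Psmb8 (0.146), Irf8 (0.0561), Ddx58 (0.0530), Zbp1 (-0.407) and Cxcl9 (-0.0801). The causes were not tested.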
